A study of Mus musculus with 8 samples.

Results

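Replication timing was described at 9 genes of transcription factors that direct endoderm formation: Foxa1, Foxa2, Foxa3, Gata4, Gata6, Sox17, Sox7, Hhex and Hnf4a. The 9 were taken by name from 21078 mouse protein-coding genes with a timing value, and all 9 had at least 1 window of the timing table over the gene body. The series used E14Tg2a embryonic stem cells (an isogenic male line) whose CTCF protein carries an auxin-inducible degron, a tag that lets auxin trigger the protein's breakdown. For 2 days one group was kept in 500 µM of auxin (IAA, a plant hormone) and the other, the control, in none. Cells of both groups carry the degron. Cells without the degron given auxin are not part of the samples used here, so effects of auxin and of CTCF loss cannot be told apart. A 2-hour BrdU pulse, sorting of early and late S-phase cells and sequencing of their labelled DNA gave 8 libraries, which join into 4 timing profiles, 2 per group. Whether replicates were grown as separate cultures is not stated in the labels, so any p-value measures only the spread between these profiles, which may be technical. The 9 genes were chosen by their known role and selected on their auxin minus control scores, which were known at the time: the lower auxin scores of Foxa1 and Foxa2 were part of the choice. Differences at the 9 genes are therefore given as a description. Where calls of the fits over all genes or bins are counted at these genes or around them, the counts are no independent test, and nothing is read from them.

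Replication timing is the order in which parts of the genome are copied during S phase, and early replication generally goes with open, transcribed chromatin. Endoderm is the germ layer that gives rise to gut, liver, pancreas and lung. Foxa proteins are pioneer factors of the forkhead family that bind their sites in closed chromatin. Gata4 and Gata6 are zinc finger factors of primitive endoderm, heart and gut, and Sox17 and Sox7 belong to the SoxF group of HMG-box factors. Hhex is a homeodomain repressor of the anterior endoderm and liver bud, and Hnf4a is a nuclear receptor that drives hepatocyte and intestinal genes. Embryonic stem cells are not endoderm, and the factors are mostly silent or low in them.

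The promoters of the 3 Foxa genes are shown because these paralogues had very different timing scores and because CTCF, named for its binding to CCCTC, is the factor that the degron removes. Sequences are from RefSeq (GRCm38.p6, the coordinates of mm10), run from 250 bases before to 50 bases after an annotated start, and are on the minus strand. Foxa1 lies at chr12:57546062-57546361, Foxa2 at chr2:148046920-148047219 (the outermost of 3 annotated starts) and Foxa3 at chr7:19023490-19023789. Capitals mark matches on either strand to CCCTC or to the forkhead motif TGTTTNC.
Foxa1: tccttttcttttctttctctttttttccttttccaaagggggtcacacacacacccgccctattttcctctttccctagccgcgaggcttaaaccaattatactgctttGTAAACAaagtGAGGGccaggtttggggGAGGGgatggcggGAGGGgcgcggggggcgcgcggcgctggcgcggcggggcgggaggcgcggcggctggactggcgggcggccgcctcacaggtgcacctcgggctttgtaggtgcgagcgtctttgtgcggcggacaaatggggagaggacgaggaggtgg
Foxa2: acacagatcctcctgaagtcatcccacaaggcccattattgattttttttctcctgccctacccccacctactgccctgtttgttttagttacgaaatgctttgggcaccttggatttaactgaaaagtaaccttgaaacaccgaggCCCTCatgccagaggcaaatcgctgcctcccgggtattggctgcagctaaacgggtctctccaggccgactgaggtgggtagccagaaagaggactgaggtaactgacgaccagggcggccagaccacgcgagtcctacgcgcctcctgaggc
Foxa3: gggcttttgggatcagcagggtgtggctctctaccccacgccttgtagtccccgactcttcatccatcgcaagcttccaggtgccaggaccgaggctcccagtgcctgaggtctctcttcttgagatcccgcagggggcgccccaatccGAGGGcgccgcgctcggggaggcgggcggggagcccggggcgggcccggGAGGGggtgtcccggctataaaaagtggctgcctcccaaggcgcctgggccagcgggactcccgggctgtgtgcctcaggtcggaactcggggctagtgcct
The Foxa1 promoter held 3 matches to CCCTC and 1 to the forkhead motif, this Foxa2 promoter 1 and 0, and the Foxa3 promoter 2 and 0. The other 2 Foxa2 starts held 7 and 3 matches to CCCTC. Of 32851 promoters of the same length, 66.0% held CCCTC and 20.5% the forkhead motif on either strand. A longer CTCF core pattern matched in none of the 8 promoters found for 5 of the 9 genes, and in 2.4% of all promoters. Only exact matches to the fixed letters of that pattern were counted. Near matches were not searched for, so the count does not show that these promoters lack CTCF-like sites. The Foxa3 promoter also held a TATAAA match, as 13.6% of all promoters did. The Foxa1, Foxa2 and Foxa3 stretches had 26, 12 and 22 CpG dinucleotides, against a median of 7 over all promoters.

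Timing was given as a score for each of 316864 windows, mostly spaced 6 kb, along 20 chromosomes of mm10. A higher score means earlier replication. Scores were quantile normalized by the authors, so all profiles share a mean of -0.045 and an SD of 2.10. The log base of the score is not known here, so values are in score units, and read depth per profile is unknown. Timing does not show expression, so the cell type could not be checked by marker RNA. The 8 stem cell genes examined (Pou5f1, Nanog, Sox2, Zfp42, Esrrb, Klf4, Tdgf1 and Dppa5a) scored between 2.02 and 3.58 in every profile. In limma 0 of them were called, as were 0% of all genes, so this count does not show that they were unchanged. Both auxin profiles were higher at Esrrb (difference 0.46) and Klf4 (0.50), as at 23.9% of all genes, and the groups overlapped at the other 6.

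In control cells the mean scores of the 9 genes ranged from 3.70 at Foxa3 to -0.98 at Foxa2, the 19.8th percentile of all genes. None of the 9 stood at the late end of the scale, as control means near Foxa1 fell to -3.65. The Foxa3 gene on chromosome 7 (19013283 to 19023539) was earliest, with 4.14 and 3.26 in the control profiles, and its mean stood at the 96.7th percentile of all genes. Next came Hhex on chromosome 19 (37434841 to 37440731), with 3.17 and 3.36, and Hnf4a on chromosome 2 (163506811 to 163572907), with 2.94 and 2.92. Gata4 on chromosome 14 (63198914 to 63271712) scored 1.58 and 1.26, and Sox7 on the same chromosome (63943706 to 63950732) scored 0.96 and 0.92. Around the middle of the scale stood Foxa1 on chromosome 12 (57540628 to 57548029), with 0.24 and 0.077. The latest were Sox17 on chromosome 1 (4490928 to 4497426) with -0.63 and -0.49, Gata6 on chromosome 18 (11052510 to 11085636) with -0.81 and -0.87, and Foxa2 on chromosome 2 (148042877 to 148046969) with -1.05 and -0.91. Among neighbours in this order, the control profiles overlapped only for Foxa3 and Hhex. The gap of 0.14 between Gata6 and Foxa2 was about the sum of their SDs of 0.045 and 0.096, with the profiles apart. The median control score of the 9 genes was 0.94, against 1.89 over all genes.

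**Figure D1:**
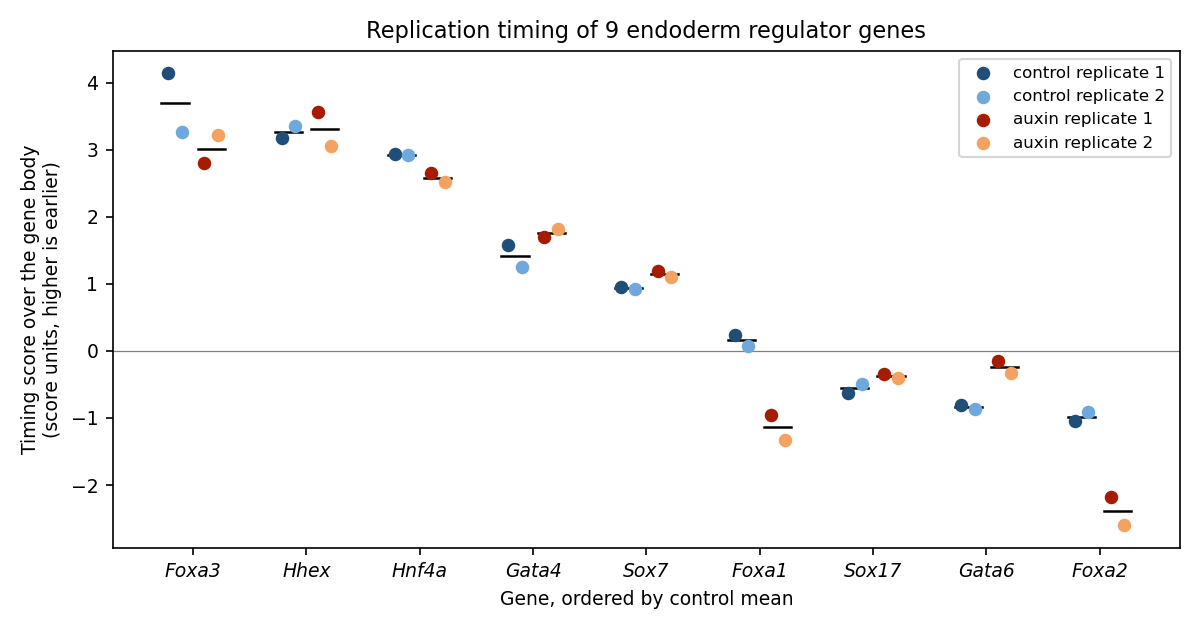
Timing score over the gene body (vertical axis, score units, higher is earlier) of the 9 genes, ordered by control mean, with a point for each of the 4 profiles and a bar for each group mean. The 2 auxin points of Foxa1 and Foxa2 lie well below both control points, while those of Gata6 lie above them.

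With auxin, the groups did not overlap at 8 of the 9 genes, in 4 with lower and in 4 with higher scores. Such separation is common in these data, since the auxin profiles were both lower at 25.9% of all genes and both higher at 23.9%. The lower genes were Foxa1, Foxa2, Foxa3 and Hnf4a, the higher ones Gata4, Gata6, Sox17 and Sox7, and Hhex overlapped. The median difference (auxin minus control) was 0.043 over the 9 genes and -0.00049 over all genes. Over the windows within 50 kb of the midpoint, 4 genes had both auxin profiles lower (26.9% of all genes) and 3 both higher (25.6% of all genes). In limma 0 of the 9 gene bodies passed, as did 0% of all genes. With a trended, robust variance 2 passed as later, Foxa1 and Foxa2 (3.3% of all genes), and 0 as earlier (2.01%). Within 50 kb of the midpoint 0 passed in limma (0% of all genes), and the trended, robust variance called 2 later (6.68%) and 1 earlier (4.69%), with 11.4% of all genes called in either direction. Within 100 kb of the midpoint limma itself called Foxa1 and Foxa2 later (4.31% of all genes) and Gata6 earlier (2.81%), with 7.12% called in either direction. The differences over the gene bodies ranged from -1.41 at Foxa2 to 0.60 at Gata6.

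Foxa1 and Foxa2, which act together in gut and liver development, had the largest differences of the set. Foxa1 scored 0.24 and 0.077 in control and -0.95 and -1.33 with auxin. Its group means were 0.16 ± 0.11 and -1.14 ± 0.27 (SD, n = 2 each), a difference of -1.30 that ranked 62nd lowest of 21078 genes. Foxa2 scored -1.05 and -0.91 in control and -2.18 and -2.60 with auxin. Its means were -0.98 ± 0.096 and -2.39 ± 0.30 (SD, n = 2 each), and the difference of -1.41 ranked 36th lowest. Both auxin profiles thus lay below both controls at each gene, by more than the spread within either group. Each of these short genes overlaps only 2 windows, but the mean over windows within 50 kb of the midpoint gave a like difference, -1.33 for Foxa1 (17 windows) and -1.25 for Foxa2 (16 windows). Leaving out any single profile kept the gene-body difference between -1.48 and -1.11 for Foxa1 and between -1.62 and -1.20 for Foxa2.

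Both genes sat at the top of a local timing peak in control cells. The highest control mean within 500 kb lay 22.3 kb from the midpoint of Foxa1 and 6.92 kb from that of Foxa2. Such a maximum lay 25 kb or less from the midpoint in 5.18% of 20701 genes, and at none of the other 7 members, where it was 104 kb (Foxa3) to 469 kb (Gata4) away. Peak height was taken as the mean score within 25 kb of the midpoint minus the mean of like spans 200 kb to each side. In control it was 1.41 and 1.27 at Foxa1 and 1.42 and 1.37 at Foxa2, at the 97.3rd and 97.9th percentiles of all genes. With auxin, Foxa1 kept a peak of 1.32 and 1.01, which overlapped the control range. At Foxa2 the height was 0.34 and 0.80 with auxin, below both controls, and the highest auxin mean lay 78.9 kb away. Thus the peak at Foxa1 stood lower in the score with much of its height, and that at Foxa2 was also flatter. The maxima and the control heights were found on the control profiles, which favours high control values at the gene.

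The extent of the lower scores differed between these loci. Around Foxa1, the windows in which both auxin scores lay below both control scores ran without a break for 624 kb (chromosome 12, 57240000 to 57864000), and the run at the gene in which the auxin mean was lower by 1 or more was 468 kb long (57336000 to 57804000). Within 500 kb of Foxa1, 124 of 139 windows had both auxin scores lower (89.2%, against 25.7% of all windows). Around Foxa2 the unbroken run was 486 kb (chromosome 2, 147744000 to 148230000), and the run at the gene with an auxin mean lower by 1 or more was 78 kb long (148002000 to 148080000). Such a difference was found in 17 windows near Foxa2 in all, and those outside this run lay on the side of lower coordinates, where the lowest was -1.02 at position 147858000. There, 96 of 142 windows had both auxin scores lower (67.6%). Neighbouring windows share signal, so these window counts are not independent measurements. The median absolute group difference over the windows was 1.05 at Foxa1, against 0.11 between the control replicates and 0.31 between the auxin replicates. At Foxa2 it was 0.47, against 0.16 and 0.40, so away from the gene the difference was about as large as the gap between the auxin replicates. From 200 kb below the midpoint to 200 kb above it, the 50-kb means of Foxa1 differed by -1.51 to -1.13. Those of Foxa2 were -0.996 at 200 kb below, -1.36 at the gene and -0.07 at 200 kb above.

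**Figure D2:**
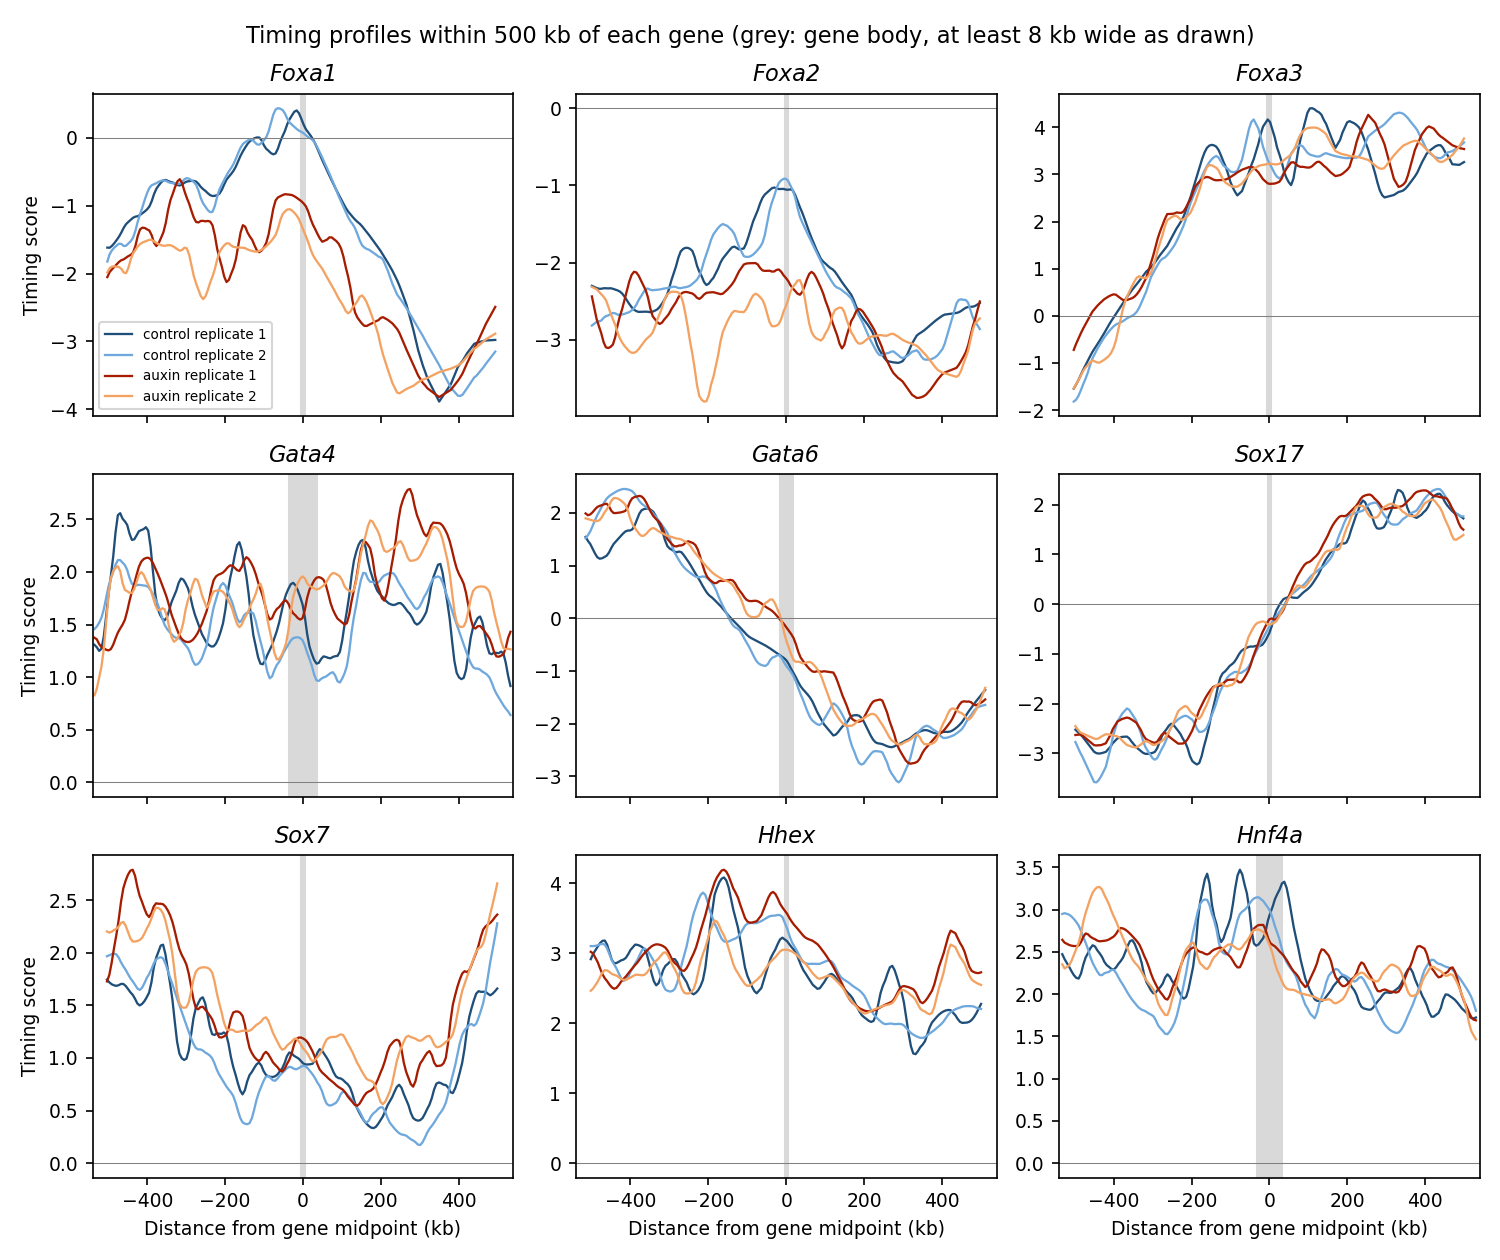
Timing score of the 4 profiles (vertical axes, score units) against distance from the gene midpoint (horizontal axes, kb), a panel for each gene. Both auxin lines run below the control lines across a broad stretch at Foxa1 and in a narrower stretch at Foxa2. They lie above the control lines on the slope at Gata6 and along much of the Sox7 panel. At Hhex they are mixed with the control lines around the gene and lie above them from 296 to 500 kb.

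In 50-kb bins with at least 3 windows, limma called 7 of 21 bins within 500 kb of Foxa1 and 2 of 21 at Foxa2, all later, where 1.02% of all bins were called later, 0.637% earlier and 1.66% in either direction. These scores were used in choosing the genes, so nothing is read from the bin counts either. Within 500 kb of the other 7 genes 0 bins were called. With a trended, robust variance, which called 5.66% of all bins later, 5.17% earlier and 10.8% in either direction, 12 bins were later at Foxa1 and 3 at Foxa2. That variance also called bins earlier, 6 at Gata6, 4 each at Gata4 and Sox7, of which some are shared, and 1 at Hhex. The called bins at Foxa1 reached from 57350001 to 57750000 with 1 bin between them not called, and at Foxa2 they covered 148000001 to 148100000. Without control replicate 1, 2 bins at Foxa1 and 0 at Foxa2 were called, and 0 at either gene without any of the other 3 profiles. With bins of any number of windows admitted to the fit, 0 bins were called at either gene. The authors' deposited table of early-to-late regions has 3 adjoining regions at Foxa1 among its 63, and in the one over the gene (57420000 to 57552000) the profiles scored 0.056 and 0.16 in control and -1.12 and -1.36 with auxin. No region of either deposited table lies within 1 Mb of another member, Foxa2 included.

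The protein-coding genes around Foxa1 had the same order of groups. Ttc6, which overlaps the end of Foxa1 and shares windows with it, had the largest difference, from -0.74 and -0.82 in control to -1.86 and -2.18 with auxin (-1.24). Mipol1, the nearest gene on the side of lower coordinates, scored -0.49 in both controls and -1.43 and -1.78 with auxin (-1.12). All 4 genes within 500 kb of Foxa1 had both auxin profiles lower, as 25.9% of all genes did. These 4 lie in the surroundings of Foxa1 already described, so they are not separate observations. Foxa2 has 3 such neighbours, all more than 348 kb above it. The nearest is the somatostatin receptor gene Sstr4 (-0.38, groups overlapping), and the largest difference was at Cd93 (-0.49), the gene of a receptor of endothelial and myeloid cells.

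Foxa3, the third paralogue and a liver and gut factor, lay in a gene-dense early domain with 44 neighbours within 500 kb. It scored 4.14 and 3.26 in control and 2.80 and 3.22 with auxin. Both auxin values were below both controls, but the difference was -0.037 between the replicates numbered 2 and -1.34 between those numbered 1. The control SD of 0.62 was close to the difference of -0.69, which was -0.25 without control replicate 1 and -0.35 over the windows within 50 kb. Its nearest neighbour Irf2bp1 had the largest difference nearby, -0.75, while Sympk, 0.84 kb away on the other side, had -0.29 with overlapping groups. Within 500 kb of Foxa3 the groups overlapped in 102 of 134 windows. Both auxin scores were lower in 14.2% of these windows (25.7% of all windows) and higher in 9.70% (26.3% of all windows).

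Gata6, which specifies primitive endoderm in the blastocyst, showed the largest difference toward earlier scores among the 9. It scored -0.81 and -0.87 in control and -0.15 and -0.33 with auxin, with no overlap. The means were -0.84 ± 0.045 and -0.24 ± 0.12 (SD, n = 2 each), a difference of 0.60. Gata6 lies on a long slope from early to late: the control mean was 2.06 at 400 kb below the midpoint and -2.65 at 300 kb above it. The point where the score crossed 0 lay at -139.0 and -144.2 kb from the midpoint in the control profiles and at -15.8 and -11.0 kb with auxin. Each profile crossed 0 once in the stretch examined, so the mean crossing was 128.2 kb nearer to the late side with auxin, against a gap of a few kb between replicates. The unbroken run of windows with both auxin scores higher was 396 kb long (10776000 to 11172000). Mib1, the nearest gene and a ubiquitin ligase of Notch signalling, stood further up the slope and differed by 0.10 (1.48 and 1.46 to 1.58 and 1.56). Among the neighbouring genes the largest difference was at Greb1l, 0.93, from 0.90 and 0.80 to 1.82 and 1.74. No annotated protein-coding gene with a value lies within 500 kb on the late side of Gata6.

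Sox17, a regulator of definitive endoderm and of endothelium, also lies on a timing slope. Its control mean went from -2.95 at 300 kb below the midpoint to 1.74 at 300 kb above it. Here the crossing of 0 lay at 30 and 42.3 kb in control and at 44.9 and 44.5 kb with auxin, a mean difference of 8.5 kb, less than the gap between the control replicates. Sox17 itself scored -0.63 and -0.49 in control and -0.34 and -0.41 with auxin. Its difference was 0.18 over the gene body and 0.083, with overlapping groups, over the windows within 50 kb. The photoreceptor gene Rp1, its nearest neighbour on the late side, differed by 0.14, and the mitochondrial ribosomal gene Mrpl15 on the early side by 0.18 with overlapping groups.

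Gata4 and Sox7 lie 672 kb apart on chromosome 14, and their surroundings overlap. Gata4 scored 1.58 and 1.26 in control and 1.71 and 1.82 with auxin (difference 0.35). Sox7, which marks primitive and parietal endoderm, scored 0.96 and 0.92 in control and 1.19 and 1.11 with auxin (0.21). From the start of Gata4 to the end of Sox7, 92 of 125 windows had both auxin scores higher and 0 had both lower, with a mean difference of 0.43. Of all windows, 26.3% had both higher and 25.7% both lower. The surroundings of Gata4 were less uniform. Within 500 kb of it, 88 of 178 windows had both auxin scores higher (49.4%) and 11 both lower (6.18%). The lowest difference there, -0.60, lay 463 kb below the Gata4 midpoint. Between the genes, Mtmr9, a myotubularin-related gene, had 1.53 and 1.68 in control against 2.56 and 2.13 with auxin (0.74). This was the largest difference among the genes near either. Within 500 kb of Sox7, 134 of 168 windows had both auxin scores higher (79.8%, against 26.3% of all windows), and the mean difference over these windows was 0.43. The smallest difference there, 0.053, lay 42.8 kb from Sox7, so the gene sat in the part of its surroundings where the groups were closest. The control replicates of Gata4 differed by about as much as the groups did, and its difference was 0.12 between replicates numbered 1 and 0.57 between those numbered 2.

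Hhex and Hnf4a, which act in liver development, were early in all profiles. Hhex scored 3.17 and 3.36 in control and 3.57 and 3.05 with auxin, so the auxin replicates enclosed the controls. Its difference of 0.043 had either sign when a single profile was left out (-0.22 to 0.30). Among the genes near Hhex, the largest difference was at Myof, 458 kb above it, from 2.49 and 2.31 to 3.01 and 2.68. Every window from 296 to 500 kb above the Hhex midpoint had both auxin scores higher, as 26.3% of all windows did. The difference there reached 1.05, at 422 kb. Hnf4a scored 2.94 and 2.92 in control and 2.65 and 2.51 with auxin, a difference of -0.34 with no overlap. Leaving out a single profile kept it between -0.41 and -0.28. The lipid droplet gene Fitm2, close to Hnf4a, had the largest difference among the neighbouring genes, -0.76. The nearest neighbours R3hdml and Ttpal differed by -0.24 and -0.30. At 250 to 450 kb on either side of Hnf4a the sign was the other way, with up to 0.52.

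**Figure D3:**
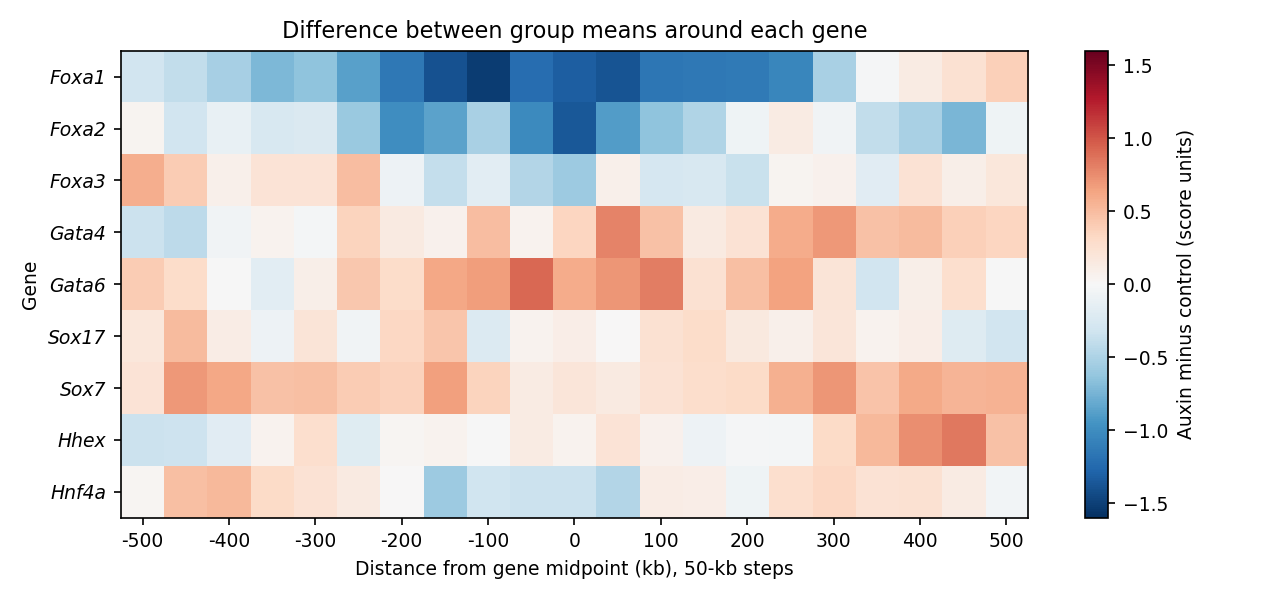
Difference between group means (colour, auxin minus control, score units) in 50-kb steps within 500 kb of each gene midpoint. Foxa1 has a broad band of negative values down to -1.51, Foxa2 a narrower one with -1.36 at the gene, and Gata6 positive values up to 0.91 around the gene.

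Other genes of the endoderm programme were examined in 4 lists, of which none of the 70 measured genes passed over the gene body in limma, where 0% of all genes passed. At an unadjusted p under 0.05 in limma, 9 of the 70 list genes were later and 1 earlier, beside 2002 later and 1608 earlier of all 21078 genes (17.1% in either direction). With a trended, robust variance 2 passed, both later, where 3.3% of all genes passed as later and 5.3% in either direction. The same 2 genes were called later by limma within 100 kb of the midpoint, where 4.31% of all genes were called later. They were Fgb, the gene of a fibrinogen chain secreted by liver, and Spink1, a trypsin inhibitor gene. Fgb scored -1.68 and -1.45 in control and -2.45 and -2.68 with auxin (difference -0.997, limma adjusted p of 0.172). Spink1 scored -1.02 and -0.83 in control and -1.71 and -1.78 with auxin (difference -0.82, limma adjusted p of 0.174).

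The 24 other regulators had a median difference of -0.028. Both auxin profiles were lower at 9 of them (25.9% of all genes) and higher at 3 (23.9% of all genes), and the groups overlapped at 12. The largest differences were at the pancreas factor gene Ptf1a (-0.76) and the organizer gene Gsc (-0.73) on the later side, and at Prox1 (0.49), a homeobox gene of liver and lymphatic vessels, on the earlier side. Among the 18 genes of signals that induce endoderm, the Nodal pathway included, the median was 0.075. The ligand genes Wnt3 (-0.57) and Bmp4 (-0.52) and, in the other direction, the Nodal inhibitor gene Lefty2 (0.53) and the activin receptor gene Acvr2a (0.37) differed most. The 12 effector genes of primitive endoderm had a median of -0.19, from Amn (-0.57) and the collagen gene Col4a2 (-0.49) to Dab2 (0.21) and the laminin gene Lamc1 (0.36). The 16 genes of definitive endoderm and liver had a median of -0.20. Besides Fgb and Spink1, the ends of that list were the transferrin gene Trf (0.12) and the chemokine receptor gene Cxcr4 (0.25). For all of these lists, the medians stood beside -0.00049 over all genes.

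**Figure D4:**
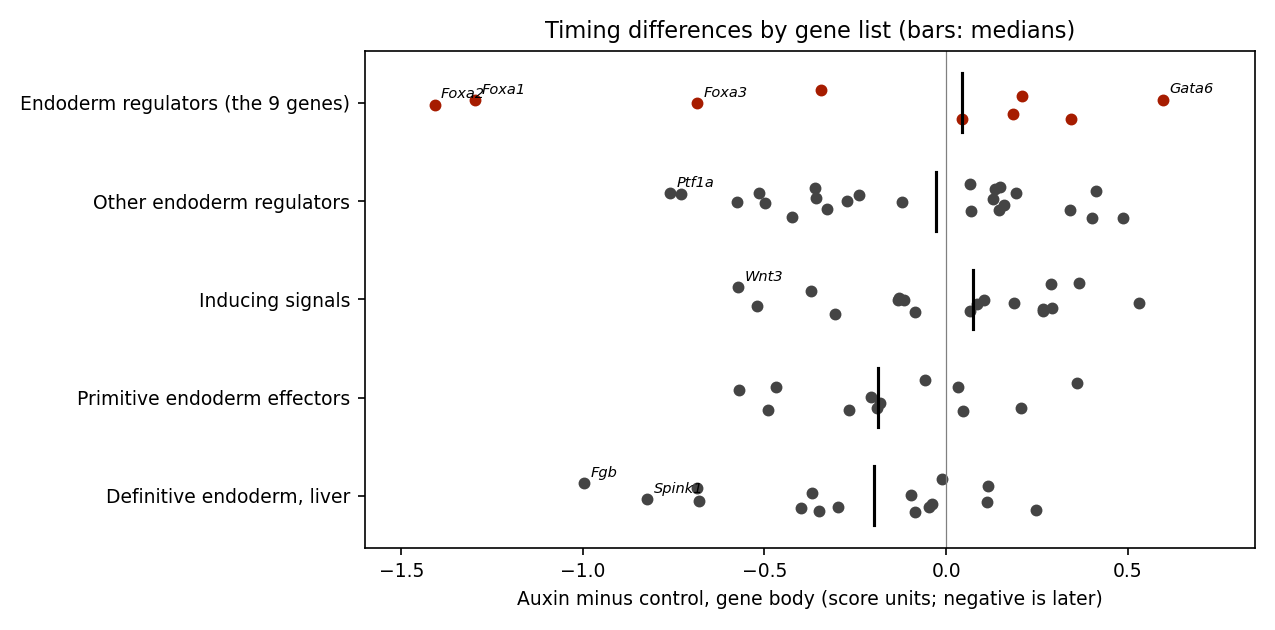
Difference over the gene body (horizontal axis, auxin minus control, score units, negative is later) of each gene in the 9-gene set and the 4 lists, with a vertical bar at each median; vertical scatter within a row has no meaning. Foxa1 and Foxa2 lie at -1.30 and -1.41, beyond the lowest list gene, Fgb, at -0.997. Foxa1 and Foxa2 were chosen with their lower auxin scores known, so nothing is read from this order.

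Relatives of the 9 genes by family were counted the same way, and 0 of them passed over the gene body in limma, where 0% of all genes passed. Of 41 other Fox genes, 17 had both auxin profiles lower (25.9% of all genes) and 7 both higher (23.9% of all genes), with a median of -0.13. In limma 8 had an unadjusted p under 0.05, where 17.1% of all genes did. The trended, robust fit called 2 of them later (3.3% of all genes), Foxe3 (-0.79) and Foxd2 (-0.78), which are neighbours in the genome and hold 1 window each, while Foxb1 (0.61) and Foxo3 (0.54) had the largest differences the other way. The 4 other Gata genes ranged from -0.26 (Gata2) to 0.34 (Gata5). Among 17 other Sox genes the trended, robust fit called 2 later, Sox3 (-1.07) and Sox30 (-0.78), and the largest positive differences were 0.86 (Sox15) and 0.55 (Sox14). In limma 5 of these Sox genes had an unadjusted p under 0.05. Within 100 kb of the midpoint limma called 3 of the Fox, 2 of the Sox and 0 of the Gata relatives, all later (4.31% of all genes). No other gene of these families had a difference as far below 0 as Foxa1 or Foxa2. Those 2 genes were chosen with their lower auxin scores known, so nothing is read from this order.

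Genes on other chromosomes with the most similar scores in the 4 profiles were found by Euclidean distance. For Foxa1 they were Cyp2u1 (distance 0.20, difference -1.21), Pnma5 (0.24, -1.27) and Zfp185 (0.26, -1.35), and for Foxa2 they were Akr1c12 (0.22, -1.40), Hmgb3 (0.31, -1.35) and Cep85l (0.33, -1.15). This likeness is over 4 profiles only. Pnma5, Zfp185 and Hmgb3 all lie on chromosome X, so they may not be separate observations.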

How the data were processed

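Per the labels' protocols, cells were sorted by S-phase stage and their BrdU-labelled DNA was pulled down and sequenced. The tools named, per the submitters' processing notes, are Bowtie2, SAMtools and bedtools, with mm10 as the build. How early and late libraries were joined into 1 score, and any smoothing, is not stated. The authors deposited timing scores per 6-kb window, quantile normalized across the 4 profiles (sorted, the columns are identical), so a genome-wide shift cannot be seen. Direction was read from the deposited early-to-late regions, whose scores were lower in the auxin profiles. Each window was taken to begin at its listed position.

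A gene's value is the mean of the windows over its body, or for 1064 genes without one the nearest window within 50 kb. Spans of 50 kb on each side (25 and 100 kb as alternatives) were centred on the gene midpoint rather than on the start site, since strand was known for part of the genes only. The groups were compared with lmFit and eBayes of limma 3.58.1 (R 4.3.3), with no term but treatment, and Benjamini-Hochberg adjusted p under 0.05, over all genes or over 50-kb bins with at least 3 windows. The fit was run on simulated scores of independent genes, where the required check was on the bias of the fitted difference. That check does not show how many calls in the real data are false or missed. A trended, robust variance, a replicate block, left-out profiles, medians of windows and other spans and bins were tried. The members and lists were chosen with earlier results of these data known. Named genes are the 9 genes; for each, the nearest gene on either side and the one with the largest difference within 500 kb; the 2 largest differences per direction in each list and family; and the 3 genes most like Foxa1 and Foxa2. One gene that this rule names is not reported here. Protein sequences of the paralogues were not analysed here.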

Additional observations from a re-analysis of the deposited data

How the results depend on the processing

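The difference at each gene other than Hhex kept its sign under all 9 alternatives tried for it. These were left-out profiles, spans of 25, 50 and 100 kb, and each replicate number alone. At those 8 genes the groups did not overlap, so left-out profiles and single replicate numbers could not change the sign. Only the spans could have done so. Sizes did change. Over 100 kb on each side the difference was -0.99 at Foxa2, 0.044 at Sox17 and 0.75 at Gata6. Over the gene body it was -1.41, 0.18 and 0.60. For Hhex, 3 of 9 changed sign. The number of the 9 genes whose groups did not overlap, 8, was 7 to 9 under these alternatives. Leaving out a profile cannot lower this number, and it was then 8 or 9. Over the spans it was 7 or 8. The counts of calls depended far more on the setting, and the cause was not tested. Gene bodies gave 0 calls in limma, 0 to 1 with a profile left out (1 without control replicate 1), and 1118 with a trended, robust variance (695 later, 423 earlier), of which 2 were in the 4 endoderm lists, against 0 in limma. Spans of 50 kb on each side gave 0 calls, 0 to 701 with a profile left out (518 without control replicate 1, 701 without control replicate 2), 2393 with a trended, robust variance and 1506 with 100 kb on each side. The 707 called bins were 4626 with a trended, robust variance, 2087 with at least 5 windows, 1 with any number of windows, and 0 to 127 with a profile left out (127 without control replicate 1, 0 without any of the others). Replicates that share a number did not deviate together (correlation of 0.036 over windows and 0.069 over 50-kb bins). With a replicate block, 0 gene bodies, 1112 spans of 50 kb and 2358 bins were called. Depth is unknown, and 2 profiles per group limit every value.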
